A study of Mus musculus with 14 samples.

Results

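Genes that interferon-gamma induces, and the genes that load peptides onto MHC class I molecules, were followed in Tregs, a CD4+ lineage that depends on Foxp3 and holds other lymphocytes in check. The set holds 36 of the 27179 genes of the deposited count table. It was given as a list of names, matched by NCBI Gene number, and all 36 were found. The list was not cut on measured values, but earlier results of these data were known when it was chosen. The members were put into 7 groups by role: 4 regulators of transcription (Irf1, Irf2, Irf8 and Nlrc5), 8 guanylate-binding proteins, 6 immunity-related GTPases, 5 chains of MHC class I molecules, 4 genes of peptide transport and loading, 5 subunits of the immunoproteasome and its activator PA28, and 4 other induced genes (Socs1, Cd274, Icam1 and Casp1).

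Tregs were sorted by FoxP3-YFP, a yellow fluorescent protein made together with Foxp3, from spleen and, at endpoint, from MC38 tumors of the flank (MC38 is a colon carcinoma line of the mouse). All mice were of B6 background and all carried the FoxP3Cre-YFP allele, so the control mice also made Cre recombinase in Foxp3-expressing cells. The WT-labelled mice (B6.IL23RWT FoxP3Cre-YFP) had an intact Il23r, which encodes the specific subunit of the IL-23 receptor. The Flox-labelled mice (IL23RFlox/Flox with FoxP3Cre) had Il23r alleles that this Cre is designed to delete in Tregs. Each tissue gave 4 WT-labelled and 3 Flox-labelled libraries, 14 in all, of polyadenylated RNA. The design text names Flox against WT within a tissue as the comparison of the study. No source used here gives ages, the exons deleted, or whether a library came from 1 mouse or several, so p-values measure the spread between these libraries, which may be technical.

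Interferon-gamma binds a receptor that signals through the kinases JAK1 and JAK2. Promoters of its target genes carry GAS elements, which answer to this signal directly, and ISRE elements, which interferon regulatory factors bind. Among the targets are families of GTPases that attack the membranes around intracellular pathogens, and the machinery that cuts proteins into peptides (immunoproteasome), carries them into the endoplasmic reticulum (TAP), and presents them on MHC class I molecules to CD8+ T cells. Tregs in tumors are exposed to interferon-gamma made by effector lymphocytes, and the pathway is known to alter how Tregs behave there.

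Promoter sequence, from 250 bases before to 50 bases after each annotated start, was taken from RefSeq for GRCm38.p6 and was found for 29 of the 36 genes (Gbp4, Gbp6, Gbp8, Gbp9, Iigp1, Tap2 and Nlrc5 had no entry). The ISRE core was searched as GAAANNGAAA or its reverse complement TTTCNNTTTC, and the GAS core as the palindrome TTCNNNGAA. The 2 patterns can overlap. An ISRE match occurred in 15 of the 29 genes (51.7%) against 3.99% of the 27025 genes in the promoter table, and a GAS match in 11 (37.9%) against 9.55%. Both occurred in 7 genes and neither in 10. The windows below are examples of the matches in 5 of the role groups, chosen by hand and not by a rule: GTPases of both families, class I chains, Irf1 and Icam1. They are written 5′ to 3′ on the strand of the gene, with matches in capitals.
Igtp (chr11:58199497-58199546, plus strand): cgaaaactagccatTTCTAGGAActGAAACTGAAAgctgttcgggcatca
Irgm2 (chr11:58214888-58214937, plus strand): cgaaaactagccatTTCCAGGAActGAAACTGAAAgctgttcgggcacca
Tgtp1 (chr11:48992299-48992348, minus strand): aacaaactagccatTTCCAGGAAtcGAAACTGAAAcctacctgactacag
Tgtp2 (chr11:49064258-49064307, minus strand): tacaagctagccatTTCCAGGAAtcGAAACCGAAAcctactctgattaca
Irgm1 (chr11:48871421-48871470, minus strand): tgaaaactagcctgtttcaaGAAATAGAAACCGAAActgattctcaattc
Gbp7 (chr3:142530230-142530292, plus strand): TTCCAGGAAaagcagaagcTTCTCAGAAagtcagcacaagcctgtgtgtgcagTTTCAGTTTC
Gbp2 (chr3:142620584-142620633, plus strand): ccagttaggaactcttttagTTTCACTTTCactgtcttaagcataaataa
B2m (chr2:122147528-122147577, plus strand): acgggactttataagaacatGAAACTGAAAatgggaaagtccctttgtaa
H2-T23 (chr17:36032796-36032845, minus strand): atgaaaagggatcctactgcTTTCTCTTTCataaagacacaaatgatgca
Irf1 (chr11:53769904-53769953, plus strand): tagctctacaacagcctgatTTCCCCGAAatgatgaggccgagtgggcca
Icam1 (chr9:21015878-21015927, plus strand): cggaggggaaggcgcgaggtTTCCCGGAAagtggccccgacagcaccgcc

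In Igtp, Irgm2, Tgtp1 and Tgtp2 the GAS match was followed, 2 bases on, by an ISRE match that read GAAANNGAAA on the strand of the gene. This 21-base arrangement, in either orientation, was present in the promoters of 5 of the 27025 genes (0.0185%), and 4 of the 5 were these members. The remaining one was Gm12185, which is no member. Igtp and Irgm2 shared 20 of the 21 bases, as did Tgtp1 and Tgtp2, and Igtp and Tgtp2 shared 17. All 5 immunity-related GTPases with an entry and all 4 guanylate-binding proteins with one (Gbp2, Gbp3, Gbp5 and Gbp7) held an ISRE match. Among the 5 class I chains, B2m and H2-T23 held an ISRE match and none held a GAS match. A match describes letters in this window and is not evidence of binding. H2-K1 and H2-D1 had no match in this window.

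**Figure D1:**
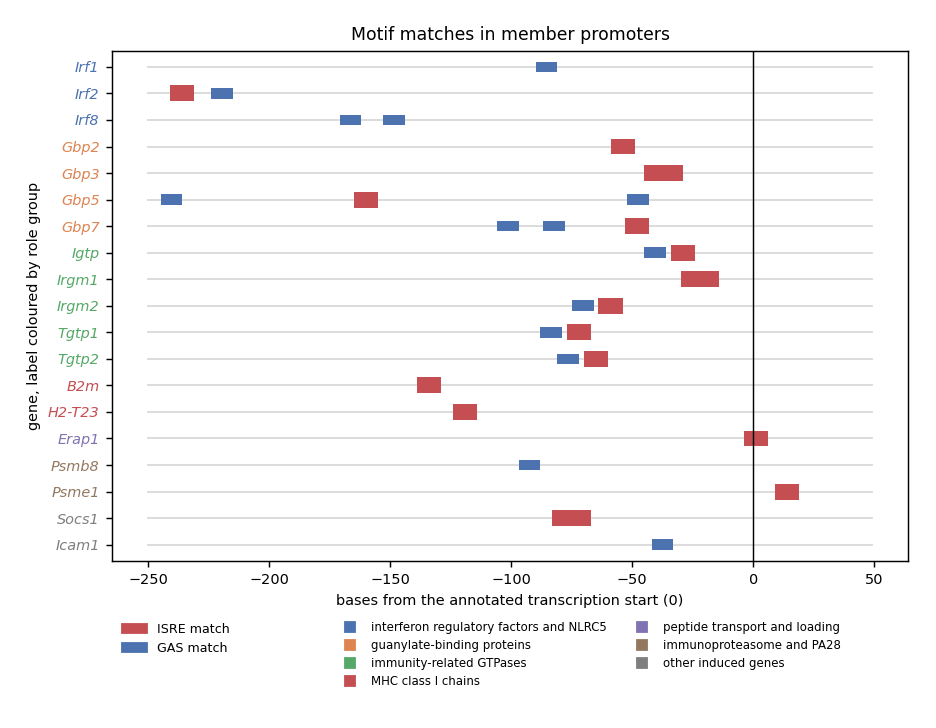
Positions of ISRE and GAS matches in the 19 member genes with any match, in bases from the annotated transcription start (grey lines span 250 bases before to 50 after it, and bar widths are the match lengths of 10 and 9 bases). In Igtp, Irgm2, Tgtp1 and Tgtp2 a GAS match stands directly before an ISRE match.

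The libraries held 4859099 to 10333892 counts and 13657 to 15312 genes with a count. Foxp3 lay between 98.2 and 268 CPM (reads of a gene relative to the TMM-adjusted library size) in every library, and Cd3e, a T cell receptor component, between 191 and 390. Il23r was near 0 everywhere, and its few counts went against the labels: 17 counts over the 3 Flox-labelled and 2 over the 4 WT-labelled tumor libraries, and 10 and 2 in spleen. If reads outside the deleted exons are counted, this gene checks nothing. In both tissues Xist was higher in every WT-labelled library than in any Flox-labelled one and 4 Y-linked genes were higher in every Flox-labelled one, so sex and genotype label cannot be told apart. Spleen WT replicate 2 held reads of Xist and of all 4 Y-linked genes, and tumor WT replicate 2 held reads of Xist and, of the Y-linked genes, 1176 of Ddx3y and at most 3 of each other one.

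Levels were compared between genes per kilobase of exon (RPKM from the TMM-scaled CPM). H2-K1, the classical class I heavy chain, stood first in both tissues, with a median of 7419 RPKM in spleen (range 5760 to 8962, 7 libraries) and 13961 in tumor (11777 to 27195). B2m, the light chain that every class I molecule carries, came second with medians of 1161 and 2151 RPKM. H2-D1, the other classical heavy chain of this strain, followed with 297 and 617 RPKM. The ranges of these 3 genes did not overlap each other within a tissue, while from the fourth position down neighbours overlapped. Igtp moved from position 11 in spleen to 4 in tumor, and Cd274, the gene of the inhibitory ligand PD-L1, from 17 to 5. Gbp5 was last in both tissues, with medians of 1.27 and 2.08 RPKM.

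H2-K1 alone took 2.00 to 2.88% of all counts in the spleen libraries and 3.24 to 6.49% in the tumor libraries. It ranked second among all genes in each spleen library and first or second in each tumor library. Its level per length was 12.3 to 36.1 times that of H2-D1 and 3.85 to 10.6 times that of B2m. Class I genes are near-identical over long stretches, and no source used here gives the rule for reads that match several genes, so the split of reads among H2-K1, H2-D1, H2-Q7 and H2-T23 is uncertain. The same holds for Tgtp1 and Tgtp2 and for the guanylate-binding proteins.

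**Figure D2:**
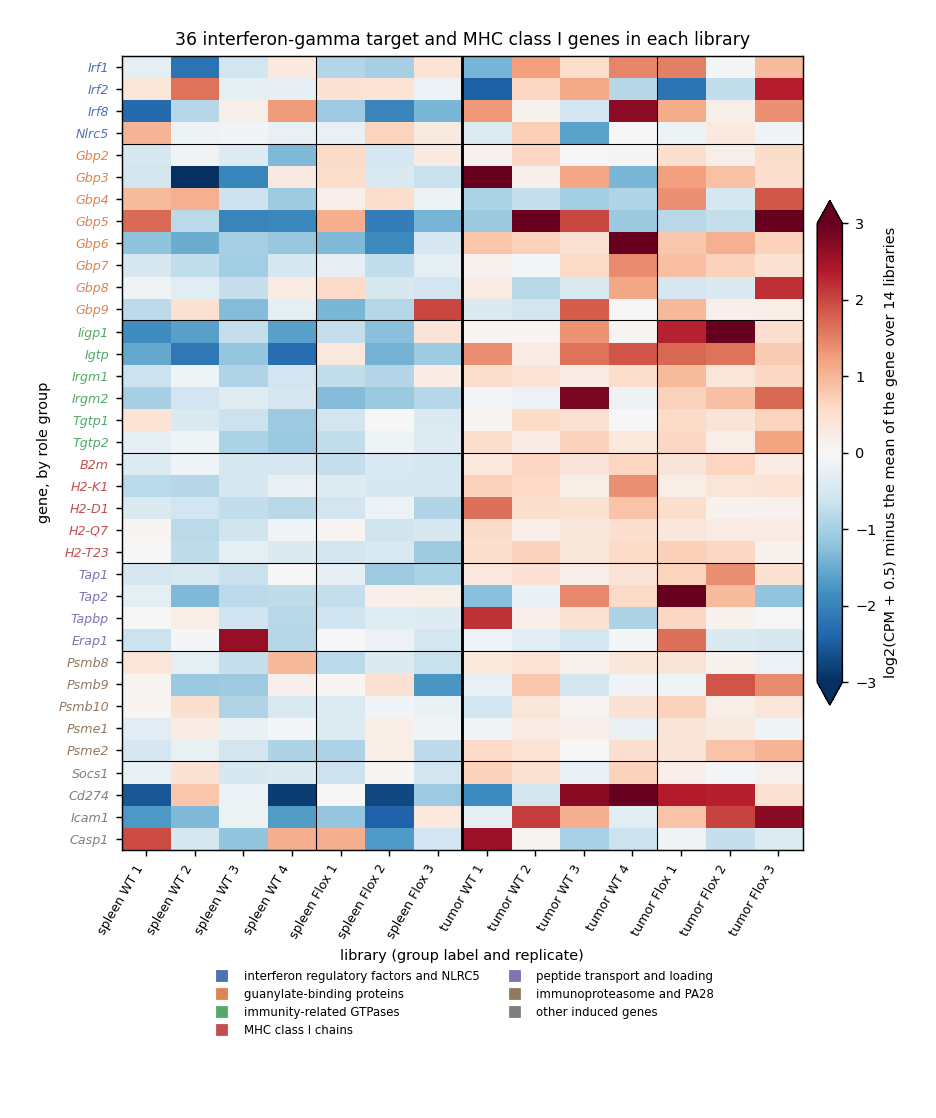
log2(CPM + 0.5) of each gene minus its mean over the 14 libraries, with genes in rows by role group and libraries in columns by group (the heavy line separates spleen from tumor, and colours beyond 3 are saturated). The rows of the immunity-related GTPases and class I chains are mostly red in tumor and blue in spleen, while Gbp5, Irf2, Cd274 and Casp1 vary between libraries of 1 group.

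Between tissues the set was higher in tumor. With the genotype label held in the fit, 16 of 36 members rose in tumor (edgeR quasi-likelihood test, adjusted p under 0.05) and 0 fell, against 22.5% of the 12008 genes tested passing in either direction, 12.3% as higher and 10.2% as lower. Of the 36 log2 fold changes, 32 were positive, and their median was 1.01 against 0.03 over all genes tested. The 7 tumor libraries lay above all 7 spleen libraries for 11 members, against 9.39% of all genes not overlapping in either direction and 5.91% as higher in tumor. Tumor libraries had lower TMM factors than spleen libraries (0.745 to 0.981 against 1.03 to 1.26), so the count depends on the scaling. With library totals alone, 9 members passed, their median fell to 0.66, and that of all genes to -0.33. With that scaling 36.1% of all calls were higher in tumor, in place of 54.6%. In bulk RNA, fewer cells of a type and less RNA per cell cannot be told apart.

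The class I chains rose together, 5 of 5, where 12.3% of all genes passed as higher. The role groups are small, so low counts in those below are not set apart from that share. B2m was at 871 to 1288 CPM in spleen (median 998) and at 1679 to 2203 in tumor (median 1850), with every tumor library above every spleen library. Its log2 fold change was 0.93 ± 0.13 (SE) with an edgeR adjusted p of 0.00038. H2-K1 ran from 16923 to 26330 CPM in spleen (median 21796) and from 34600 to 79899 in tumor (median 41018), again without overlap, for a log2 fold change of 1.11 ± 0.17 (adjusted p 0.00059). H2-D1 was at 612 to 1005 CPM (median 767) in spleen and 1237 to 3567 (median 1592) in tumor. These ranges did not overlap, and the log2 fold change was 1.24 ± 0.24 (adjusted p 0.0024).

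The 2 nonclassical heavy chains of the set showed the same order. H2-T23, which encodes Qa-1, the ligand of inhibitory NKG2A receptors, was at 116 to 242 CPM in spleen (median 177) and 262 to 401 in tumor (median 360). Its log2 fold change was 1.01 ± 0.22 (adjusted p 0.0058), and 0.67 with an adjusted p of 0.051 under library totals alone. H2-Q7, a Qa-2 gene, was at 197 to 360 CPM (median 245) in spleen and 395 to 505 (median 434) in tumor, for a log2 fold change of 0.66 ± 0.21 (adjusted p 0.037). Neither gene overlapped between tissues. The call of H2-Q7 was lost in 13 of 22 alternative fits, 9 of which left out 1 library: spleen Flox replicate 2 or 3, spleen WT replicate 2 or 3, tumor Flox replicate 1, 2 or 3, or tumor WT replicate 3 or 4 (adjusted p 0.050 to 0.079).

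Of the immunity-related GTPases, a family of effector and regulatory members, 5 of 6 rose in tumor, where 12.3% of all genes did. Igtp, which encodes Irgm3, was at 28.4 to 175 CPM in spleen (median 52.6) and 168 to 519 in tumor (median 439). Only the highest spleen library, Flox replicate 1, reached into the tumor range. The log2 fold change of Igtp was 2.63 ± 0.42 (adjusted p 0.00074). Iigp1, an effector GTPase of the family, was at 15.6 to 76.1 CPM in spleen (median 24.1) and 60.3 to 480 in tumor (median 82.1). Its ranges overlapped, since spleen Flox replicate 3 lay above 3 of the 7 tumor libraries, and its log2 fold change was 2.23 ± 0.46 (adjusted p 0.0039). Irgm2, a regulatory member, was at 9.73 to 19.0 CPM (median 13.4) in spleen and 21.8 to 179 (median 40.2) in tumor, without overlap (log2 fold change 2.08 ± 0.52, adjusted p 0.011). The value of Irgm2 was 1.34 (adjusted p 0.033) without tumor WT replicate 3, the library at 179 CPM.

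Tgtp2 and Irgm1 also rose, by less. Tgtp2 was at 4.14 to 8.66 CPM in spleen (median 7.12) and 11 to 22 in tumor (median 13.9), for a log2 fold change of 1.11 ± 0.28 (adjusted p 0.012). Irgm1, a regulatory GTPase tied to autophagy, was at 12.7 to 28.7 CPM (median 15.5) in spleen and 28.9 to 47.3 (median 35.5) in tumor, for 1.02 ± 0.29 (adjusted p 0.022). Both genes were without overlap. The call of Tgtp2 was lost under library totals alone (0.74, adjusted p 0.080) and without a filter (1.01, adjusted p 0.061). That of Irgm1 was lost under library totals alone (0.65, adjusted p 0.15), without a filter (0.92, adjusted p 0.081), with the replicate block (1.07, adjusted p 0.054) and without spleen Flox replicate 2 (0.93, adjusted p 0.0501). Tgtp1, with the near-identical copy Tgtp2, had a log2 fold change of 0.73 ± 0.31 that did not pass (adjusted p 0.10), and its ranges of 14.9 to 43.4 and 32.6 to 51.3 CPM overlapped.

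Guanylate-binding proteins, which coat and break open pathogen vacuoles, were less uniform, and 2 of 8 rose, where 12.3% of all genes did. Gbp7 was at 277 to 480 CPM in spleen (median 398) and 550 to 1531 in tumor (median 847), without overlap (log2 fold change 1.23 ± 0.24, adjusted p 0.0029). Gbp6 was at 15.3 to 41.4 CPM in spleen (median 25.1) and 80.9 to 947 in tumor (median 103). It did not overlap either, and the log2 fold change was 2.93 ± 0.63 (adjusted p 0.0046). Its value rests in part on tumor WT replicate 4 at 947 CPM, since the other 6 tumor libraries lay between 80.9 and 124, and without that library the log2 fold change was 1.95. Gbp3 and Gbp5 had log2 fold changes of 2.15 ± 0.82 and 2.11 ± 1.02 that did not pass (adjusted p 0.074 and 0.16). Gbp3 reached 2401 CPM in tumor WT replicate 1 against 65.3 to 403 in the other tumor libraries, and Gbp5 was above 90 CPM in 3 tumor libraries and below 14 in the other 4. Gbp4 had a negative value, -0.30 ± 0.54 (adjusted p 0.73).

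Among the genes of peptide transport and loading, 1 of 4 rose, where 12.3% of all genes did. Tap1, which encodes a subunit of the peptide transporter, was at 46.3 to 98 CPM in spleen (median 69.3) and 113 to 256 in tumor (median 134). Its libraries did not overlap, and its log2 fold change was 1.11 ± 0.30 (adjusted p 0.016). The call was lost under library totals alone (0.76, adjusted p 0.098) and with the replicate block (adjusted p 0.064). The partner subunit Tap2 had a log2 fold change of 1.56 ± 0.59 that did not pass (adjusted p 0.072), with 772 CPM in tumor Flox replicate 1 and 34.6 to 227 in the other tumor libraries. Tapbp, the tapasin gene that bridges TAP and class I, stood at 0.97 ± 0.39 (adjusted p 0.093). Erap1, the aminopeptidase that trims peptides, stood at -0.41 ± 0.68 (adjusted p 0.71), with 151 CPM in spleen WT replicate 3 and at most 23.7 in the other spleen libraries.

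In the immunoproteasome group 1 of 5 rose, where 12.3% of all genes did. Psme2, which encodes the PA28 beta subunit, was at 8.42 to 18.9 CPM in spleen (median 10.9) and 16.3 to 33.7 in tumor (median 23). Spleen Flox replicate 2 alone reached into the tumor range, and the log2 fold change was 1.06 ± 0.29 (adjusted p 0.018). The call was lost under library totals alone (0.70, adjusted p 0.099) and without a filter (0.96, adjusted p 0.071). Its partner Psme1, the alpha subunit, stood at 0.18 ± 0.26 (adjusted p 0.65). Per length, the ratio of Psme2 to Psme1 was 0.143 to 0.267 in spleen and 0.239 to 0.595 in tumor. The catalytic subunits Psmb8, Psmb9 and Psmb10, which replace constitutive subunits of the proteasome, stood at 0.36 ± 0.32, 0.88 ± 0.47 and 0.43 ± 0.30, and none passed (adjusted p 0.20 to 0.45).

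The share of the immunoproteasome (Psmb8, Psmb9 and Psmb10 as a percentage of these plus their constitutive counterparts Psmb5, Psmb6 and Psmb7, per length) ran from 33.7 to 78.3% in spleen and from 25.9 to 83.3% in tumor. This spread moved with Psmb6, which was above 60 CPM in 4 libraries and at 9.69 to 15.8 in the other 10. Without Psmb9 and Psmb6 the share was 66.7 to 85.9% in spleen and 68.8 to 77.8% in tumor, so the tissues overlapped.

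Of the 4 regulators 0 passed. Irf1, an early target of the pathway, was at 46.3 to 289 CPM in spleen (median 146) and 82.6 to 617 in tumor (median 418), with overlap, for 1.26 ± 0.48 (adjusted p 0.072). Irf8, a factor better known from myeloid and B cells, had a log2 fold change of 1.81 ± 0.64 (adjusted p 0.054). Irf2, which can oppose Irf1, and Nlrc5, the transactivator of class I genes, stood at 0.07 ± 0.70 and -0.31 ± 0.36.

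In the last group 2 of 4 rose, where 12.3% of all genes did. Icam1, the adhesion ligand of LFA-1, was at 10.8 to 76.2 CPM in spleen (median 23.7) and 48.8 to 399 in tumor (median 129), for 2.37 ± 0.57 (adjusted p 0.0087). Cd274 was at 15.6 to 207 CPM in spleen (median 54.4) and 30.3 to 1032 in tumor (median 583), for 2.62 ± 0.83 (adjusted p 0.036). Both overlapped between tissues. Cd274 was above 550 CPM in 4 tumor libraries, at 159 in 1, and at 78.9 and 30.3 in tumor WT replicates 2 and 1. Its call was lost in 11 of 22 alternative fits, 9 of which left out 1 library: spleen Flox replicate 2 or 3, spleen WT replicate 1, 3 or 4, tumor Flox replicate 1 or 2, or tumor WT replicate 3 or 4 (adjusted p 0.059 to 0.081). Socs1, a feedback inhibitor of JAK kinases, and Casp1, the inflammasome protease, stood at 0.54 ± 0.28 and -0.09 ± 0.69 (adjusted p 0.17 and 0.95).

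**Figure D3:**
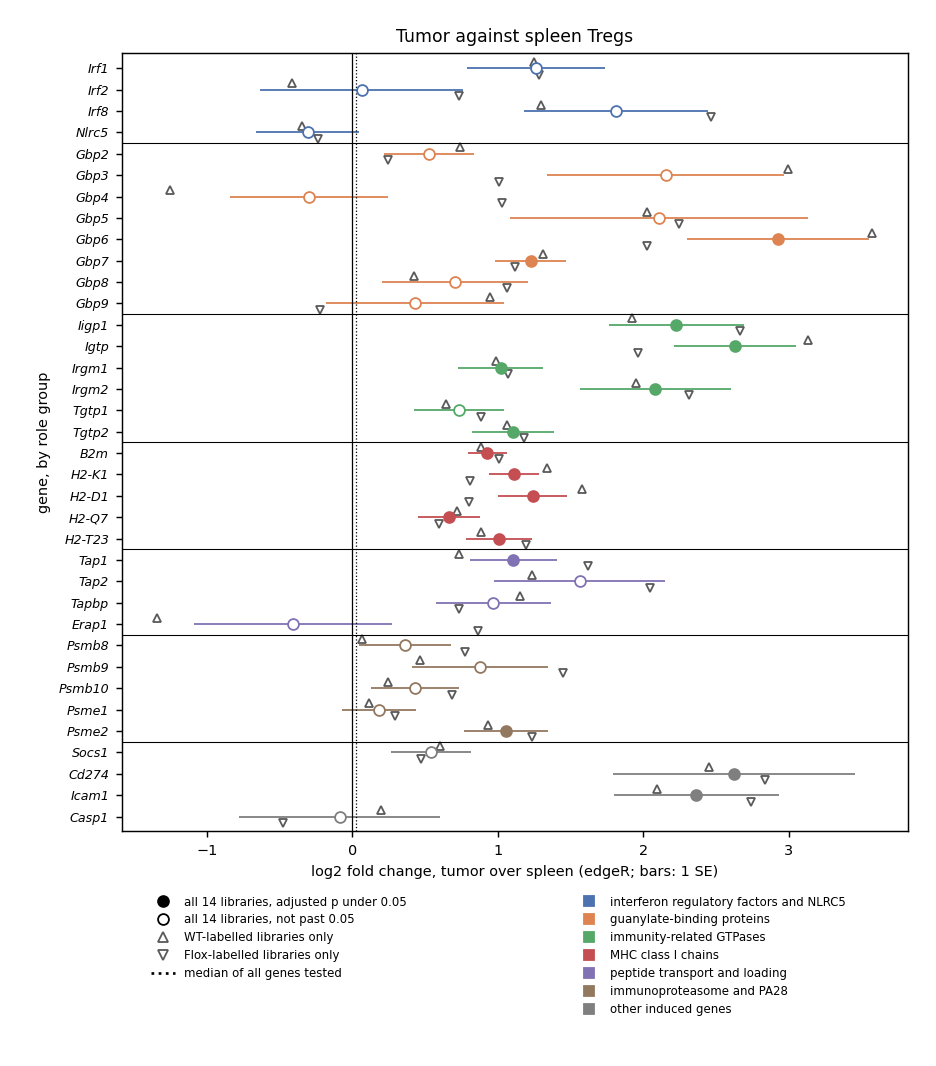
log2 fold change of tumor over spleen for each gene (edgeR, bars 1 SE), filled where the adjusted p was under 0.05, with the values from WT-labelled (up triangles) and Flox-labelled libraries alone (down triangles). The 16 filled points all lie between 0.66 and 2.93, right of the dotted median of all genes at 0.03.

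The tissue difference was also fitted within each genotype label, with fewer libraries. In WT-labelled libraries 4 members passed (Igtp, B2m, H2-K1 and H2-D1), against 7.1% of 10560 genes in either direction (3.9% as higher), and the median over members was 0.94. In Flox-labelled libraries 3 passed (B2m, H2-K1 and Irgm2), against 7.87% of 10760 genes (4.15% as higher), with a median of 1.05. All 16 members that passed over both labels had positive values within each label. They were picked by a fit over these same libraries, so their signs here are no separate support. H2-K1 stood at 1.34 ± 0.24 (WT) and 0.81 ± 0.08 (Flox), and H2-D1 at 1.58 ± 0.32 and 0.80 ± 0.26. The tests of these differences are given with the genotype comparison below.

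Genes of the same pathway outside the 36 were read from 5 further lists. The counts of each list stand against 12.3% of all genes passing as higher and 10.2% as lower. In receptor signalling, 6 of 14 genes rose in tumor and 1 fell. Ifngr1, the ligand-binding receptor chain, was at 52.2 to 124 CPM in spleen and 244 to 638 in tumor (log2 fold change 2.43 ± 0.27, adjusted p 4.5e-05), and Stat3 stood at 1.59 ± 0.26 (adjusted p 0.00088). Ifng, Jak2 and Stat2 were among the others that rose, and Ptpn6, a phosphatase gene, fell by 1.67 on the log2 scale. Ifng itself was at 1.32 to 3.38 CPM in spleen and 2.53 to 18.3 in tumor. Of 25 further targets, 21 were tested, 6 rose and 1 fell (Gbp2b). Cxcl10, a chemokine gene, was at 1.5 to 3.2 CPM in spleen and 22.5 to 80.1 in tumor (4.14 ± 0.40, adjusted p 1.9e-05), and Fgl2, which encodes a secreted effector of Tregs, stood at 3.93 ± 0.38 (adjusted p 1.9e-05).

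Among further class I and loading genes 9 of 14 rose, led by H2-T22 (1.43 ± 0.29, adjusted p 0.0032) and H2-Q4 (1.15 ± 0.23, adjusted p 0.0029), and 0 fell. Most genes of this list are class I genes that may share reads with the members, so their calls may not be separate from those of the members. Against 12.3% of all genes passing as higher and 10.2% as lower, 0 of 10 class II genes passed as higher and 2 as lower. The latter were H2-Ob, a class II modulator typical of B cells, at -3.81 ± 0.91 (adjusted p 0.0084), and H2-DMb1 at -2.41 ± 0.82 (adjusted p 0.048). H2-DMb1 lost its call in 16 of 22 alternative fits, and without spleen WT replicate 2 stood at -1.41. Of the 5 constitutive counterparts of the immunoproteasome 0 passed, and the 2 with the smallest p were Psmb7 (0.80 ± 0.29, adjusted p 0.065) and Psme4 (1.42 ± 0.59, adjusted p 0.10).

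Markers of other cells also differed between tissues, where 12.3% of all genes passed as higher in tumor and 10.2% as lower. Of 12 B and plasma cell markers, 11 were tested and 10 were lower in tumor, and their summed level was 472 to 2204 CPM in spleen and 49.6 to 310 in tumor. Of 13 macrophage and monocyte markers, 12 were tested, of which 5 were higher in tumor (Cd14, C1qa, C1qb, C1qc and Ly6c2) and 1 lower (Apoe). Their sums were 172 to 409 CPM in spleen and 36.9 to 280 in tumor. Apoe held more counts than any other of them (12678 in spleen, 2505 in tumor), so the sums do not track the 5 that rose. Of 8 dendritic cell markers, 3 were tested and 1 was higher (Zbtb46), with sums of 0.789 to 53.1 and 6.62 to 28.3 CPM. Of 6 CD8 T and NK cell markers, 4 were tested and 2 were lower, with sums of 7.21 to 39.7 and 3.38 to 8.98 CPM. Of 11 carcinoma, fibroblast and endothelial markers, 5 were tested. The collagens Col1a1, Col1a2 and Col3a1 were higher and Epcam lower, and the sums were 59.1 to 172 and 39.4 to 291 CPM. Pecam1 held the most counts of that list (6591 in spleen, 3768 in tumor). The sums therefore hide the collagens, such as Col3a1 at 13 counts in spleen and 1534 in tumor. Krt19 was at 0 in every library and Krt8 at 0 in all but 1, and Krt18 was at most 0.502 CPM. Of 12 genes that cell handling can induce (immediate early and heat shock), 3 were higher in tumor (Dusp1, Atf3 and Hsp90aa1). The part of these cells, and of handling, in the tissue difference of the members was not tested.

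The comparison named by the design, Flox against WT within tumor, found no member past the threshold: 0 of 36 passed, and 0 of 10777 genes did (0% of all genes, edgeR). At an unadjusted p under 0.05 there were 2 members, both higher in Flox-labelled libraries, against 8.08% of all genes in either direction and 5% as higher. DESeq2 called 1 member (Gbp4) against 2.38% of all genes. The 36 log2 fold changes split into 20 positive and 16 negative with a median of 0.09, where all genes had -0.06. Their median SE was 0.63, so large changes in single members could go uncalled.

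Gbp4 was at 346, 94.0 and 486 CPM in the Flox-labelled and at 68.6, 81.8, 65.3 and 70.4 CPM in the WT-labelled tumor libraries. All Flox-labelled values were higher, with replicate 2 close to the WT-labelled range. The log2 fold change was 2.09 ± 0.63 (p 0.012, edgeR adjusted p 0.58, DESeq2 adjusted p 0.023, and 0.27 to 1.00 in the other alternatives). Libraries did not overlap for Gbp4 and Tap1, 2 of 36 members, against 5% of all genes (2.47% as higher). Tap1 was at 156, 256 and 134 CPM against 122, 134, 113 and 130, a difference of 0.54 ± 0.50 on the log2 scale (adjusted p 0.76). Its lowest Flox-labelled and highest WT-labelled values were nearly equal.

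Iigp1 was at 287, 480 and 82.1 CPM in the Flox-labelled and 60.9, 60.6, 148 and 60.3 CPM in the WT-labelled tumor libraries. Its groups overlapped, since WT replicate 3 lay above Flox replicate 3. The log2 fold change was 1.76 ± 0.75 (p 0.048, adjusted p 0.58), and the second GTPase by p, Tgtp2, stood at 0.26 ± 0.41 (adjusted p 0.88). Gbp6 stood at -1.48 ± 1.01 (adjusted p 0.67) with all libraries and at 0.20 without WT replicate 4, the library at 947 CPM.

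The 5 class I chains all had negative values in Flox-labelled tumor libraries, from -0.68 to -0.03, and none passed. With library totals alone they ran from -0.51 to 0.09. H2-D1 was at 1644, 1237 and 1248 CPM against 3567, 1592, 1564 and 2074 (-0.68 ± 0.35, adjusted p 0.59). H2-K1 was at 35170, 39594 and 41018 CPM against 49881, 46566, 34600 and 79899 (-0.45 ± 0.23, adjusted p 0.59). Both overlapped, through WT replicates 2 and 3 for H2-D1 and WT replicate 3 for H2-K1. Summed B and plasma cell markers ran from 49.6 to 55.1 CPM (Flox) and from 62.1 to 310 CPM (WT) in tumor, without overlap. Summed macrophage markers ran from 86.4 to 280 and from 36.9 to 213 CPM. The highest of these macrophage sums lay in Flox replicate 3, with 1392 Apoe counts, and in WT replicate 2, with 1330 Adgre1 counts. None of these markers passed singly, and the part of such cells in the values of the class I chains and Irf8 was not tested.

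In the other roles the members with the smallest p did not pass in tumor either. Psmb9 stood at 1.18 ± 0.68 (adjusted p 0.62) with 54.2, 218 and 159 CPM in Flox-labelled and 50.8, 106, 40.5 and 55.3 in WT-labelled libraries, which overlapped. Psme2 stood at 0.40 ± 0.43 (adjusted p 0.81). Tap2 stood at 1.47 ± 1.07 and Erap1 at 0.87 ± 0.65 (adjusted p 0.69 and 0.70), and both turned negative without Flox replicate 1 (-0.23 and -0.21). Icam1 stood at 1.02 ± 0.80 (adjusted p 0.71). Casp1 stood at -1.47 ± 0.96 (adjusted p 0.65), and at 0.06 without WT replicate 1. Irf2 and Irf8 stood at 0.75 ± 1.22 and -0.43 ± 0.87 (adjusted p 0.88 and 0.92), and each changed sign when 1 library was left out (-1.46 without Flox replicate 3 for Irf2, 0.48 without WT replicate 4 for Irf8).

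The 5 pathway lists held 0 genes past the threshold in tumor Flox against WT. Jak2 was at 303, 241 and 391 CPM in Flox-labelled and 639, 975, 754 and 571 in WT-labelled libraries, without overlap (-1.26 ± 0.41, edgeR adjusted p 0.58, DESeq2 adjusted p 0.011), and Ptpn1 stood at 1.74 ± 0.70 (adjusted p 0.58). Among further targets Gbp11 and Wars had the smallest p (1.59 ± 0.85 and -2.68 ± 1.49, adjusted p 0.60 for both), and Wars stood at 0.41 without WT replicate 4. H2-M3 and H2-T24 stood at -0.61 ± 0.39 and -0.74 ± 0.64 (adjusted p 0.65 and 0.75). The class II genes H2-DMb1 and Ciita stood at -1.17 ± 0.71 and -2.68 ± 1.95 (adjusted p 0.63 and 0.69), the latter at 1.48 without WT replicate 2. Psmb6 and Psme3 stood at 3.05 ± 1.18 and 2.36 ± 1.40 (adjusted p 0.58 and 0.63), at -0.02 without Flox replicate 1 and -1.14 without Flox replicate 3.

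In spleen 0 of 36 members passed for Flox against WT, as did 0 of 10935 genes (0%), and no member had an unadjusted p under 0.05, against 6.86% of all genes. DESeq2 called 0 members and 1.13% of all genes. The median over members was 0.04, with 20 positive and 16 negative values, and no member's libraries were without overlap, against 5.88% of all genes. Igtp had the smallest p, with 175, 52.6 and 67.4 CPM in Flox-labelled and 48.1, 31.5, 62.8 and 28.4 CPM in WT-labelled libraries, which overlapped through WT replicate 3 (1.21 ± 0.56, adjusted p 0.67). Iigp1 stood at 1.04 ± 0.56 (adjusted p 0.69). Summed B and plasma cell markers ran from 472 to 611 CPM (Flox) and from 766 to 2204 CPM (WT) in spleen, also without overlap, and their part in the values of the members was not tested.

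Elsewhere in spleen the regulators Irf8 and Irf2 stood at -1.59 ± 0.87 and -0.34 ± 0.53 (adjusted p 0.69 and 0.91). Gbp2 and Gbp9 stood at 0.70 ± 0.50 and 1.06 ± 0.88 (adjusted p 0.77 and 0.80), the latter at -0.77 without Flox replicate 3. B2m and H2-T23 stood at -0.17 ± 0.17 and -0.32 ± 0.32 (adjusted p 0.83 and 0.84). Tap2 and Erap1 stood at 0.68 ± 0.43 and -1.30 ± 0.96 (adjusted p 0.73 and 0.77), Psmb8 and Psmb9 at -0.87 ± 0.50 and 0.22 ± 0.64 (adjusted p 0.71 and 0.96), and Casp1 and Socs1 at -0.80 ± 0.98 and -0.25 ± 0.45 (adjusted p 0.87 and 0.92). Without 1 library Irf2, Erap1 and Psmb9 changed sign (0.26 without WT replicate 2, 0.27 without WT replicate 3, and -0.20 without Flox replicate 2).

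Whether the Flox against WT difference itself differed between tumor and spleen was tested as an interaction over all 14 libraries. No member passed, nor did any of the 12008 genes (0%), and 1 member was under an unadjusted p of 0.05, against 10.8% of all genes. DESeq2 called 0 members and 1.12% of all genes. Gbp4 had the smallest p, with a difference of log2 fold changes of 2.28 ± 0.87 (edgeR adjusted p 0.43). H2-D1 and H2-K1 stood at -0.79 ± 0.44 and -0.55 ± 0.32 (adjusted p 0.53 and 0.54), and Igtp and Iigp1 at -1.17 ± 0.75 and 0.74 ± 0.90 (adjusted p 0.59 and 0.81). Erap1 stood at 2.18 ± 1.20 and Tap1 at 0.88 ± 0.57 (adjusted p 0.53 and 0.59). Psmb8 and Psmb9 stood at 0.70 ± 0.64 and 0.97 ± 0.92, Irf8 and Irf2 at 1.14 ± 1.23 and 1.17 ± 1.39, Gbp6 at -1.58 ± 1.12, and Icam1 and Casp1 at 0.65 ± 1.11 and -0.67 ± 1.43 (adjusted p 0.63 to 0.91).

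**Figure D4:**
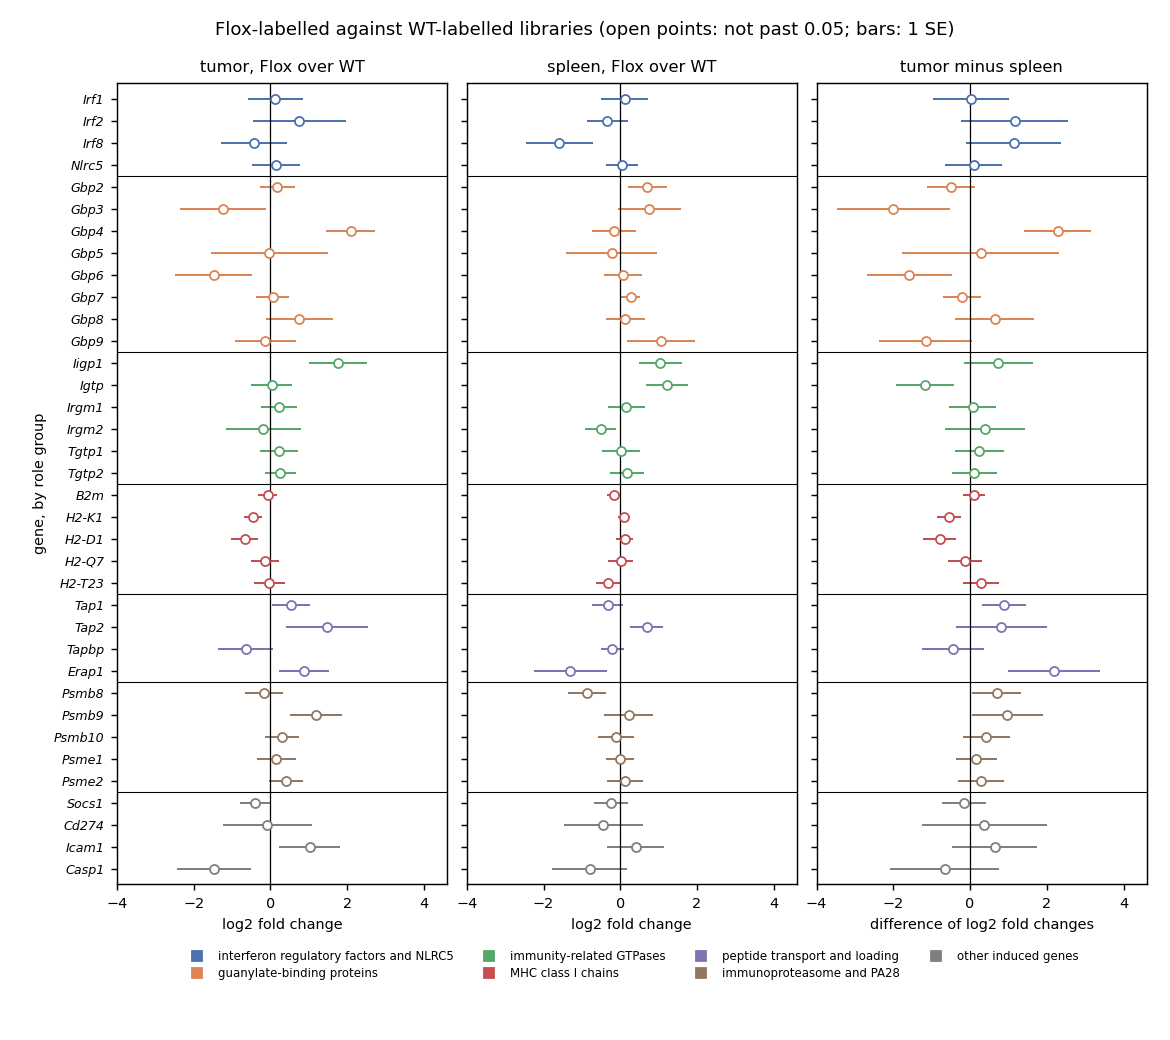
log2 fold change of Flox-labelled over WT-labelled libraries in tumor (left) and spleen (middle), and their difference (right), for each gene (edgeR, bars 1 SE). All points are open, since none had an adjusted p under 0.05, and Gbp4 at 2.09 in tumor is the farthest to the right in the left panel.

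Members differed in how much libraries of 1 group varied. The SD of log2(CPM + 0.5) within groups, pooled over the 4 groups, had a median of 0.72 over the 36 members and 0.93 over the 12008 genes tested, and 25 of 36 members lay below the median of the 500 genes nearest to them in level. The class I chains were the most even group, with SDs from 0.17 (B2m) to 0.37 (H2-D1), all 5 below genes of like level. The immunity-related GTPases had a median SD of 0.54, with 6 of 6 below, and the immunoproteasome group one of 0.44, with 5 of 5 below. The guanylate-binding proteins ran from 0.42 (Gbp7) to 2.09 (Gbp5), and Cd274 stood at 1.85. Of the 36 members, 32 had their highest library in tumor, spread over all 7 tumor libraries (1 to 7 members each). The same share over all genes was not computed, so this count is not set apart from it or from the tissue difference above.

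**Figure D5:**
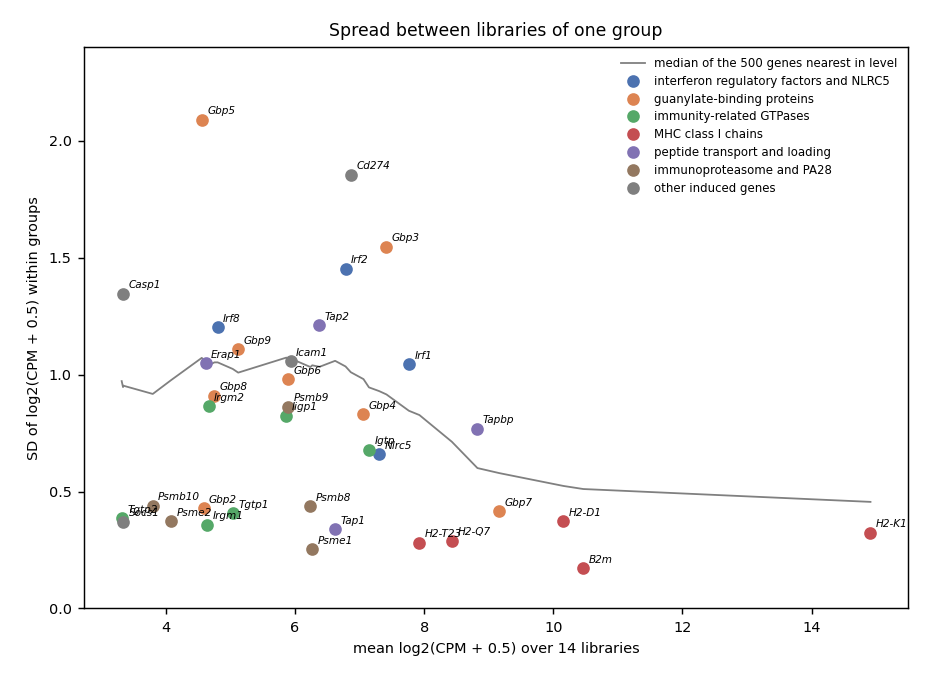
SD of log2(CPM + 0.5) within groups against the mean of log2(CPM + 0.5) over the 14 libraries, 1 point per gene coloured by role, with the median SD of the 500 genes nearest in level as a grey line. The 5 class I chains lie below the line, and Gbp5, Cd274 and Gbp3 lie farthest above it.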

How the data were processed

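Raw counts of reads in genes were deposited by the authors as a single table covering 14 libraries of polyadenylated RNA. Per the labels, the kit was Qiagen's RNeasy Plus micro, and GeneWiz prepared ultra-low input libraries. The submitters' processing notes name the build mm10. Aligner, counter, annotation and strand setting: not given in the sources used here. Thus overlapping genes (B2m and Patl2, Erap1 and Cast, Cd274 and Plgrkt, Nlrc5 and 9330175E14Rik, H2-T23 and A930015D03Rik, Tapbp and Gm19412, Psme1 and Emc9) could share reads. Of 27179 gene IDs, 25275 matched a RefSeq symbol. The 1904 others held 1.25 to 1.95% of a library's counts and stayed in the tests.

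Counts were tested with edgeR 4.0.16 in R 4.3.3 (quasi-likelihood F test, TMM, filterByExpr, Benjamini-Hochberg over all genes tested, threshold 0.05, two-sided). The SE is the log2 fold change divided by the square root of F. All 36 members passed the filter in each comparison. Tumor against spleen used all 14 libraries with the genotype label as a covariate. RPKM divide TMM-scaled CPM by the length of all exons of a gene joined, from the GENCODE annotation. No 2 libraries of a group were duplicates (chi-square per degree of freedom 92.1 to 391). The fits were also run on simulated data, where they missed most of the changes planted for the Flox against WT comparisons and their difference. Alternatives were DESeq2 1.42.0, limma 3.58.1 voom with quality weights, RLE factors, 2 other filters, the replicate number as a block, other sets of libraries and each library left out. Library totals alone were added after seeing the data.

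The mean level of every member is drawn in the figure of spread, and the text gives levels for only part of them. Folds were given for each member that passed and for the 2 with the smallest p in each role group. They were also given for the 2 with the smallest p of each pathway list in tumor Flox against WT and in tumor against spleen. Foxp3 and Il23r were given as checks by level or counts only, without a fold. Other genes given, such as Gbp3, Gbp5, Psme1, Tapbp, Ifng and the Tgtp1 pair, were chosen after their values were seen. The members and lists were chosen with earlier results of these data known. Figures were drawn with matplotlib 3.10.9. One gene of the pathway lists is not reported here by name.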

Additional observations from a re-analysis of the deposited data

Results flagged for a closer look

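Each member was checked in the 2 groups of 4 libraries, 72 group values in all, for a library far from the other 3 on the log2 scale (Dixon's test at its 95% critical value of 0.829). Chance flags about 1 in 20 such groups, and 4 were found. Nlrc5 was at 318 CPM in spleen WT replicate 1, with the other 3 libraries at 134 to 148. Gbp6 was at 947 CPM in tumor WT replicate 4, with the others at 80.9 to 106. Tumor WT replicate 3 held 2 of the 4: Iigp1 at 148 CPM against 60.3 to 60.9, and Irgm2 at 179 CPM against 21.8 to 23.6. Groups of 3 libraries were not checked.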

How the results depend on the processing

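No member passed as lower in any comparison under any alternative run. Flox against WT in tumor gave 256 genes and 1 member (Gbp4) with DESeq2 and 1 gene with limma voom. In spleen it gave 124 genes with DESeq2, 1 with the filter of 5 CPM in 3 libraries, 4 with all 14 libraries in 1 fit, and 0 to 1 with 1 library left out. The difference between tissues gave 135 with DESeq2 and 0 to 1 with 1 library left out. For tumor against spleen, library totals alone (chosen after seeing the data) gave 9 members and a median of 0.66, WT-labelled libraries alone 750 genes and 4 members, and Flox-labelled ones 847 genes and 3 members. With 1 library left out 13 to 18 members passed, and without both WT replicate 2 libraries 15. The causes were not tested, but the last fits hold fewer libraries.

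Whether same-numbered libraries came from the same mouse is not known. Same-numbered ones correlated at -0.03 to 0.05 in their deviations from group means, and differently numbered ones at -0.11 to 0.07. Deviations over so few libraries per group cannot settle the pairing. Both WT replicate 2 libraries held Ddx3y reads (374 in spleen and 1176 in tumor), more than any other WT-labelled library. Apart from the replicate block, the fits treated the libraries as unpaired. With the replicate number as a block, 12 members passed in tumor against spleen and 0 in the Flox against WT comparisons.

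Some values that did not pass changed sign. With limma voom, Irf2 was at -0.13 and Irf8 at 0.020 in tumor, Psmb9 at -0.048 in spleen, and Irf2 at -0.030 and Casp1 at 0.32 in the difference. With the replicate block, Irf8, Gbp6 and Wars were at 0.57, 0.17 and 0.38 in tumor and Casp1 at 0.056 in the difference. With 1 library left out, in tumor, Irf2 ran from -1.46 to 1.37, Irf8 from -0.74 to 0.48, Gbp6 from -1.79 to 0.20, Tgtp2 from -0.015 to 0.45, Tap2 from -0.23 to 2.11, Erap1 from -0.21 to 1.23, Casp1 from -1.79 to 0.057, Wars from -3.05 to 0.41, Ciita from -3.57 to 1.48, Psmb6 from -0.023 to 3.59 and Psme3 from -1.14 to 3.48. In spleen, Irf2 ran from -0.55 to 0.26, Gbp9 from -0.77 to 1.54, Erap1 from -1.62 to 0.27 and Psmb9 from -0.20 to 0.65. In the difference, Irf2 ran from -1.11 to 1.73, Gbp6 from -1.90 to 0.13 and Casp1 from -1.41 to 0.88.

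Each member had counts in every library, the lowest being 21 counts of Casp1 in spleen Flox replicate 2. Depth was not varied, so the part of depth, and of the spread between libraries, in the calls was not tested. The counting of reads shared by class I genes is unknown and was not varied.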
